A study of Mus musculus with 6 samples.

Results

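The ephrin, Slit and netrin guidance genes comprise 3 ligand and receptor systems, and their transcripts were compared between CD34 negative and CD34 positive cancer-associated fibroblasts (CAFs) of mouse mammary tumors. All rows whose symbol named an Eph receptor, an ephrin, a Slit, a Robo receptor, a netrin, a netrin-G protein or an Unc5 receptor were taken, which gave 39 of the 27179 genes in the table. The tumors came from female raGFP-Wnt1 mice, in which the MMTV promoter drives a Wnt1 transgene in the mammary epithelium and 1 Pdgfra allele carries nuclear GFP, so that every sorted cell was selected by GFP from the Pdgfra locus. GFP+ cells of 3 tumors were divided by flow cytometry into a CD34 negative and a CD34 positive fraction (6 libraries, 3 per group), without any treatment. The ages of the mice were not given in the sources used here, and it was not stated whether the tumors came from separate animals. The design text calls the fractions CD34-high and CD34-low, whereas the sample titles and the study's methods call them CD34 negative and positive. In the study, high and low name fibroblast fractions of normal mammary glands, which are not part of these libraries. Libraries are called here by fraction and tumor number.

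Guidance molecules were first described in growing axons and also act in vessels, epithelia and stroma. Slits are secreted ligands of Robo receptors, mostly repulsive for migrating cells. Netrins are laminin-related secreted proteins that attract through Dcc and its relative neogenin and repel through Unc5 receptors. Ephrins are bound to the membrane, the A class by a lipid anchor and the B class by a transmembrane segment, so Eph signaling needs contact between cells and can run in both directions. In the mammary gland, Slit2 with Robo1, netrin-1 with neogenin, and Eph-ephrin pairs are known for roles in duct structure.

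The libraries held between 16238059 and 86609267 counts. The CD34 negative library of tumor 3 stood apart, with counts for 14314 genes against 16253 to 19220 in the other libraries, and 12 of the 39 guidance genes had no count in it, against 3 to 9 elsewhere. Fibroblast markers summed to 23882 to 39349 counts-per-million (CPM) in the CD34 negative and 25524 to 33566 CPM in the CD34 positive libraries; all 5 markers had counts in all 6 libraries. Endothelial markers summed to 5.91 to 18.9 and 7.23 to 27.3 CPM, and epithelial markers to 46.8 to 139.6 and 16.3 to 127.9 CPM.

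Levels below are CPM, scaled by library size and TMM factor, per kilobase of gene length, and can be compared between genes. Of the 39 genes, 3 (Epha5, Epha6 and Unc5d) had no count in any library, and 5 more (Epha8, Epha10, Ntn5, Robo3 and Robo4) were below the filter on low counts, which left 31 for the test. Slit3 had the highest mean level of the 39, followed by Slit2, Ntn4, Unc5b, Epha3, Ntn1, Ephb2 and Epha4. Levels thus ranged from Slit3, at up to 179 CPM per kilobase, down to single counts. Slit3 and Slit2 were the ligands with the highest mean levels, and the levels of the Robo receptors were lower than those of Slit2 and Slit3 in each library.

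**Figure D1:**
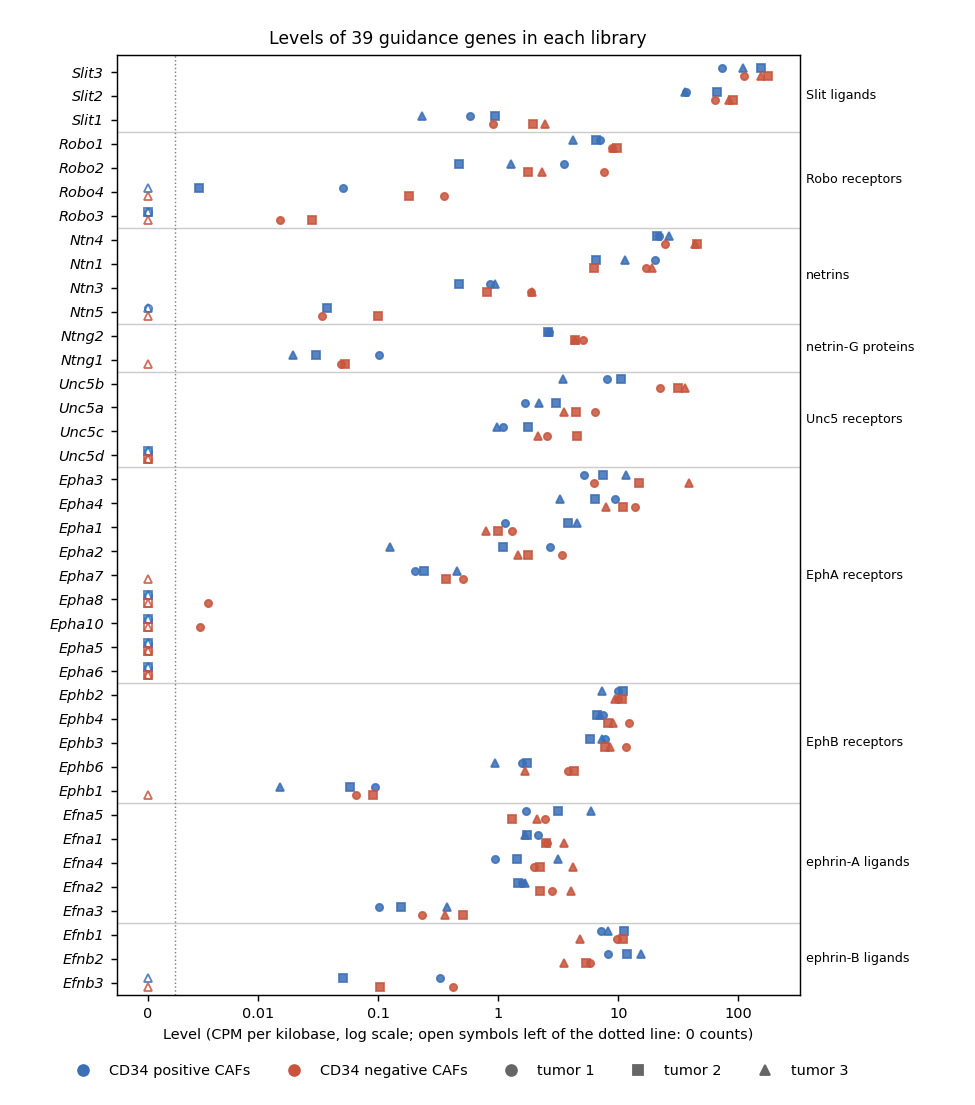
Level of each guidance gene (CPM per kilobase, log scale) in the 3 CD34 positive (blue) and 3 CD34 negative (red) libraries, with a symbol for each tumor and open symbols for 0 counts. Within each library Slit3 lies furthest to the right, although its symbols overlap with those of Slit2 across libraries. Unc5b separates the colors with no overlap, from 3.43 to 10.5 in the positive and 22.2 to 35.9 in the negative libraries.

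Most guidance genes that differed were higher in CD34 negative CAFs. With the tumor as a block in limma-voom, 10 of the 31 tested genes had an adjusted p under 0.05. The 9 that rose in CD34 negative CAFs were Unc5b, Unc5c, Slit2, Robo1, Robo2, Ntn4, Epha3, Epha4 and Ephb6, beside 4.32% of all 14855 genes tested, and the 1 that fell was Efnb2, beside 4.25%. Without the tumor in the model, limma-voom called 0 of the 31, beside 0.0202% of all genes called higher and 0.101% called lower, while 13 higher and 2 lower reached an unadjusted p under 0.05, as did 7.23% and 7.10% of all genes. In limma-voom the calls thus rest on the comparison within tumors, both fractions of a pair being from 1 tumor. The median log2 fold change of the 31 was 0.66 with the block, against -0.01 for all genes tested, and 0.68 against -0.03 without it. Median log2 ratios of the 31 within tumors 1, 2 and 3 were 0.59, 0.62 and 0.70. In all 3 tumors, 20 of the 31 were higher in the CD34 negative library and 1 was lower, where 22.8% and 23.4% of all genes tested were. In 9 of the 31, all 3 negative libraries lay above all 3 positive ones (10.4% of all genes), and in 1, Efnb2, below (10.0% of all genes). Less RNA per cell and fewer cells of a type cannot be told apart in these bulk libraries.

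**Figure D2:**
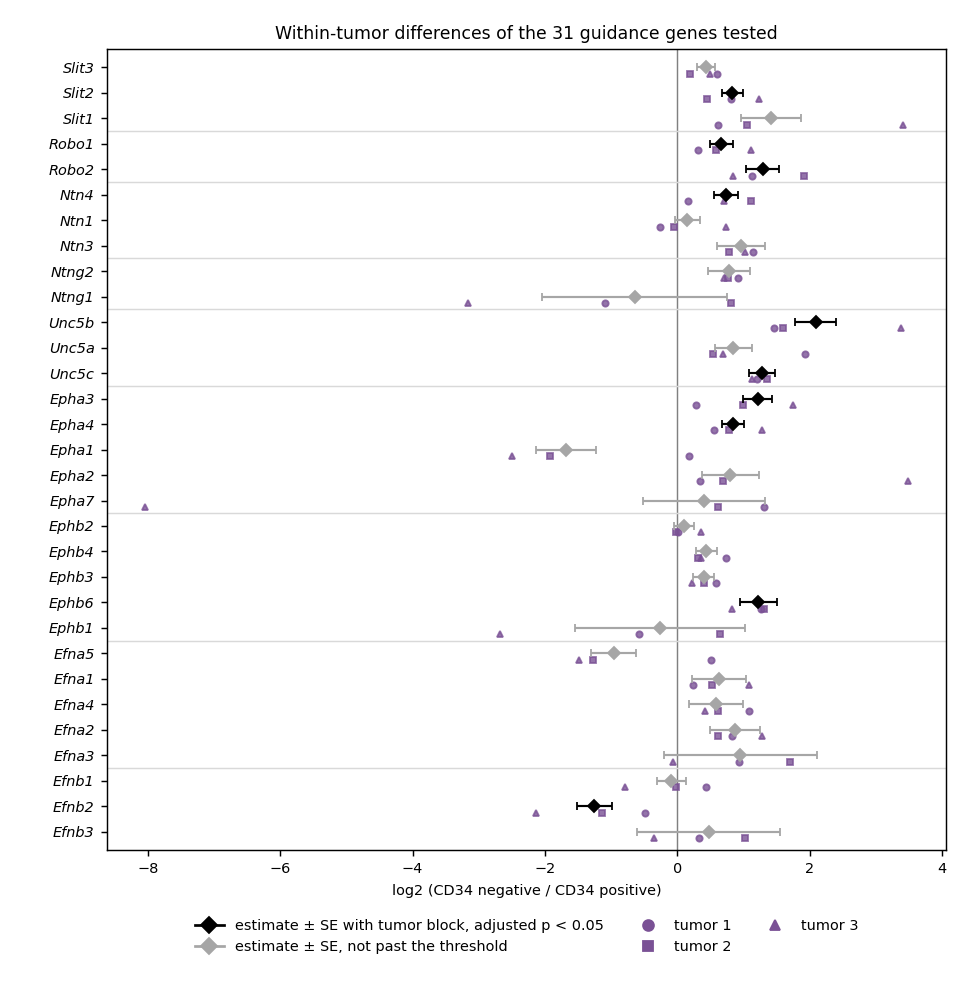
log2 ratio of CD34 negative to CD34 positive CAFs for the 31 tested guidance genes, with purple symbols for each tumor and diamonds for the limma-voom estimate with the tumor as a block (± SE), black where the adjusted p was under 0.05. Of the 10 black diamonds, 9 lie right of 0 and that of Efnb2 lies left of it, and the wide spread of Epha7 comes with 0 counts in 1 library.

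The promoters of 3 genes are shown because these genes carry the pattern: Unc5b, with the largest called rise, Efnb2, the called fall, and Slit2, the most abundant gene called. Sequences run 5′ to 3′ over 300 bases that end 50 bases after a start site of RefSeq, and capitals mark matches on either strand to any of 5 motifs, namely the TATA box with the letters TATAAA, the box named CCAAT after its letters, the GC box with the letters GGGCGG, the AP-1 site with the letters TGANTCA and the E-box with the letters CACGTG. None of the 5 contains another.
Unc5b, GRCm38.p6 chr10:60831532-60831831, minus strand: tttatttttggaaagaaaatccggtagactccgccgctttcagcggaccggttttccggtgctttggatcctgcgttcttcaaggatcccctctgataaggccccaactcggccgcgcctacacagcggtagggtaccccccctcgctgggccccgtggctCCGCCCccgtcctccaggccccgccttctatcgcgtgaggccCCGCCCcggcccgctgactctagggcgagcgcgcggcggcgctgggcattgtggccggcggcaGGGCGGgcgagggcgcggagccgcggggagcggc
Efnb2, GRCm38.p6 chr8:8661193-8661492, minus strand: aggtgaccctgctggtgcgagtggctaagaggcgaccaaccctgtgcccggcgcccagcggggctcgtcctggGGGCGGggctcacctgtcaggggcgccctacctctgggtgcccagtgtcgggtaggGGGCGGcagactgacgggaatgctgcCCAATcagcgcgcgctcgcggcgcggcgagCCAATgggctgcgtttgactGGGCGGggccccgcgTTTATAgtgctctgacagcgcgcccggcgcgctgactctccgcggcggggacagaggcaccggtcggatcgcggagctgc
Slit2, GRCm38.p6 chr5:47982905-47983204, plus strand: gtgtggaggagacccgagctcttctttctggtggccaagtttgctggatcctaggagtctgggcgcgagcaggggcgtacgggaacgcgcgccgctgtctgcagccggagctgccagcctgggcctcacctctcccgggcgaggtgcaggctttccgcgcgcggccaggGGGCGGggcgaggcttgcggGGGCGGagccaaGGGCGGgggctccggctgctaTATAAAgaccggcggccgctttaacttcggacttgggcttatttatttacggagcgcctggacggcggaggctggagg
All 3 windows held 3 GC boxes, the motif with the most matches here, and GC contents of 69.7%, 72.3% and 68.0%. A TATA box was found in the Efnb2 and Slit2 windows and not in that of Unc5b, and the Efnb2 window also held 2 CCAAT boxes. The Slit2 window begins at 47982905, inside the gene, whose annotated positions begin at 47981291, so it belongs to an internal start site. The windows of Unc5b and Efnb2 span the outermost start of their gene. None held an AP-1 site or an E-box. A GC box stood in 35.7% of all 32851 promoter windows and in 27 of 40 windows of the 35 guidance genes matched. For the TATA box these values were 13.6% and 2, for the CCAAT box 37.4% and 15, for the AP-1 site 7.81% and 0, and for the E-box 7.15% and 2. A match is a description of letters and not evidence of a factor's binding.

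Unc5 receptors, which mediate repulsion by netrins and can promote cell death when netrin is absent, had the largest log2 ratio of summed levels among the 9 gene groups in every tumor. Unc5b (gene 107449, chromosome 10, 60762594 to 60831581, protein-coding, with all positions here in build GRCm38.p6) was at 8.10, 10.5 and 3.43 CPM per kilobase in the positive libraries of tumors 1, 2 and 3 and at 22.2, 31.6 and 35.9 in the negative libraries. The groups did not overlap, and the lowest positive and the highest negative value came from the same tumor, tumor 3. Unc5b rose 4.27-fold, with a log2 fold change of 2.09 ± 0.31 (SE) and an adjusted p of 0.00457 under the blocked limma-voom fit, against 0.0781 without it. It was the only guidance gene called by limma-voom without the block once a library or a tumor had been removed, and this was so without tumor 1.

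Unc5c (gene 22253, chromosome 3, 141465564 to 141834924) was at 1.1, 1.78 and 0.979 CPM per kilobase in the positive and 2.54, 4.56 and 2.13 in the negative libraries. Its ratio was nearly the same in each tumor, at 1.21, 1.36 and 1.12 on the log2 scale, and every negative value exceeded every positive one. The log2 fold change was 1.28 ± 0.20 (adjusted p 0.0052 under the blocked limma-voom fit and 0.264 without). Unc5a did not pass, with positive levels of 1.68, 3.04 and 2.19, negative levels of 6.42, 4.43 and 3.56 and a log2 fold change of 0.84 ± 0.28 (adjusted p 0.108 with the block), although its groups did not overlap. Unc5d had no count. Summed over the family, Unc5 levels were 10.9, 15.3 and 6.60 CPM per kilobase in the positive and 31.2, 40.6 and 41.6 in the negative libraries, and Unc5b made up 52.0% to 86.3% of them.

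Netrins include ligands of these receptors. Ntn4 (gene 57764, chromosome 10, 93641049 to 93745972), a netrin of basement membranes that binds laminin, was at 21.8, 21.1 and 26.6 CPM per kilobase in the positive and 24.4, 45.5 and 43.3 in the negative libraries. The negative libraries of tumors 2 and 3 were high, whereas that of tumor 1 lay within the range of the positive libraries. Ntn4 rose by 0.74 ± 0.18 on the log2 scale (adjusted p 0.0348 under the blocked limma-voom fit, 0.316 without). Ntn1, the classical netrin, was at 20.4, 6.49 and 11.4 in the positive and 17, 6.30 and 19 in the negative libraries. Its groups overlapped and both libraries of tumor 2 were lowest, with log2 ratios of -0.26, -0.04 and 0.73 and an adjusted p of 0.701 with the block. The blocked estimate of 0.15 ± 0.19 changed sign without tumor 3. The estimate without the block, 0.22 ± 0.50, changed sign without tumor 3, without any 1 of the positive library of tumor 2 and the negative libraries of tumors 1 and 3, and with sample quality weights.

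The low-abundance netrin Ntn3 was at 0.844, 0.472 and 0.933 in the positive and 1.88, 0.807 and 1.89 in the negative libraries, higher within each tumor at log2 ratios of 1.15, 0.77 and 1.02, with an adjusted p of 0.15 under the blocked limma-voom fit. Ntn5 had between 0 and 7 counts per library. Netrin-G proteins are membrane-anchored relatives that bind Lrrc4-family proteins rather than Dcc. Ntng2 was at 2.66, 2.59 and 2.65 in the positive and 5.05, 4.39 and 4.35 in the negative libraries. The values within each group were close and the groups did not overlap, but the log2 fold change of 0.78 ± 0.31 had an adjusted p of 0.17 with the block. Ntng2 shares 14% of its annotated exon bases with a transcript on the same strand, 6530402F18Rik, which had 2223 counts against 1734. Ntng1 had 0 to 15 counts per library.

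Slit3 and Slit2 were the most abundant guidance transcripts by mean level, and of the 3 Slits only Slit2 passed the test. Slit2 (gene 20563, chromosome 5, 47981291 to 48307735) was at 37.0, 66.0 and 35.7 CPM per kilobase in the positive and 64.6, 90.0 and 84.3 in the negative libraries. The positive library of tumor 2 (66.0) lay just above the negative library of tumor 1 (64.6), so the ranges overlapped, while within each tumor the negative library was higher. Slit2 rose 1.78-fold, with a log2 fold change of 0.83 ± 0.16 (adjusted p 0.0134 under the blocked limma-voom fit, 0.205 without).

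Slit3 (gene 20564, chromosome 11, 35121456 to 35708507) was at 73.5, 156 and 110 CPM per kilobase in the positive and 112, 179 and 155 in the negative libraries. It was higher within each tumor, at log2 ratios of 0.61, 0.19 and 0.49, but the estimate of 0.43 ± 0.13 had an adjusted p of 0.0809 with the block. Slit1, at 0.579, 0.938 and 0.229 against 0.897, 1.94 and 2.46, was the least abundant Slit in every library. Its log2 fold change of 1.41 ± 0.45 had an adjusted p of 0.0955 with the block, and it passed there without tumor 3, at 0.95. Slit3 made up 63.1% to 75.4% of the summed Slit level and Slit2 24.4% to 36.4%.

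Both Robo receptors above the filter rose. Robo1 (gene 19876, chromosome 16, 72027518 to 73047491), the main Slit receptor of many tissues, was at 7.08, 6.56 and 4.17 CPM per kilobase in the positive and 8.79, 9.82 and 8.99 in the negative libraries. The groups did not overlap, and the positive library of tumor 3 was the lowest of the 6. The log2 fold change of 0.66 ± 0.17 had an adjusted p of 0.045 under the blocked limma-voom fit and 0.224 without.

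Robo2 (gene 268902, chromosome 16, 73891976 to 75447443) was at 3.51, 0.470 and 1.28 in the positive and 7.67, 1.77 and 2.29 in the negative libraries. Its level depended on the tumor: the positive library of tumor 1 was above the negative libraries of tumors 2 and 3, while within each tumor the negative library was higher, at log2 ratios of 1.12, 1.91 and 0.84. The log2 fold change was 1.29 ± 0.25 with the block (adjusted p 0.0152) and 1.98 ± 0.76 without it (adjusted p 0.295). Without the positive library of tumor 2, the unblocked value was 0.78. Robo4, known from endothelium, had 3, 1 and 0 counts in the positive and 73, 30 and 0 in the negative libraries, and Robo3, known from commissural neurons, at most 6 counts in a library.

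**Figure D3:**
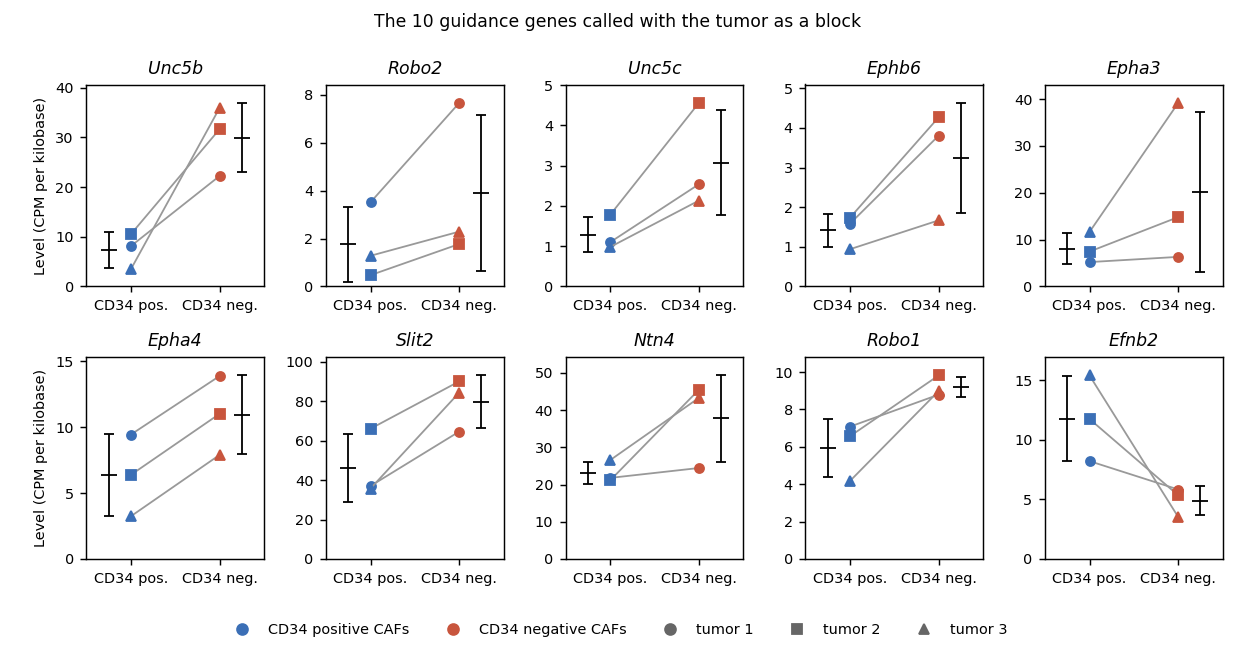
Level (CPM per kilobase) of the 10 guidance genes called with the tumor as a block, with a line joining the CD34 positive (blue) and CD34 negative (red) library of each tumor and black bars for group mean ± SD (n = 3). Lines go up in all 3 tumors for 9 genes, as for Unc5c from 1.78 to 4.56 in tumor 2, and down for Efnb2.

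Among EphA receptors, tyrosine kinases that mostly bind A-class ephrins, Epha3 and Epha4 rose and the others did not pass. Epha3 (gene 13837, chromosome 16, 63543532 to 63864175) was at 5.19, 7.43 and 11.6 CPM per kilobase in the positive and 6.31, 14.8 and 39.2 in the negative libraries. The negative library of tumor 3 was the highest by far, the ratio differed between tumors (0.28, 0.99 and 1.75 on the log2 scale) and the groups overlapped. Its log2 fold change was 1.21 ± 0.22 with the block (adjusted p 0.0116), and 0.77 there without tumor 3, where it also passed. Without the block it was 0.94 ± 0.63, with an adjusted p of 0.534.

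Epha4 (gene 13838, chromosome 1, 77367182 to 77515107), which also binds B-class ephrins, was at 9.43, 6.38 and 3.24 in the positive and 13.9, 11 and 7.90 in the negative libraries. Its order over tumors was the reverse of that of Epha3, highest in tumor 1 and lowest in tumor 3 in both fractions. The log2 fold change was 0.84 ± 0.17 (adjusted p 0.0165 under the blocked limma-voom fit, 0.296 without). Epha4 contributed 54.6% of the summed EphA level in the negative library of tumor 1 and 16% in that of tumor 3, where Epha3 contributed 79.5%.

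Epha1 had the opposite sign. It was at 1.13, 3.78 and 4.49 CPM per kilobase in the positive and 1.29, 0.994 and 0.790 in the negative libraries, lower in tumors 2 and 3 and not in tumor 1. Its log2 fold change of -1.68 ± 0.46 had an adjusted p of 0.0544 under the blocked limma-voom fit, and it passed there without tumor 1, at -2.15. Exons of Epha1 share 236 bases (6.01%) with those of Zyx on the opposite strand. Zyx had 28366 counts against 2013, and the library kit does not mark strand. Epha2 was at 0.126 to 2.67 in the positive and 1.45 to 3.41 in the negative libraries, with an adjusted p of 0.314 with the block. Epha7 had 0 counts in the negative library of tumor 3 and 26 to 227 in the others. Without the block, its estimate changed sign with that library: -1.54 on all libraries and 0.67 without that library. With the block, on all libraries, the estimate was 0.41 ± 0.92.

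EphB receptors, which mostly bind B-class ephrins, were more even. Ephb6 (gene 13848, chromosome 6, 41603834 to 41620509), a member without kinase activity, was at 1.58, 1.73 and 0.938 CPM per kilobase in the positive and 3.81, 4.27 and 1.67 in the negative libraries. The negative library of tumor 3 fell within the positive range, and the other negative libraries lay above it. Ephb6 rose by 1.22 ± 0.28 on the log2 scale (adjusted p 0.0263 under the blocked limma-voom fit, 0.339 without). Ephb4 was at 7.42, 6.65 and 7.08 in the positive and 12.3, 8.25 and 9.07 in the negative libraries, and Ephb3 at 5.86 to 7.72 and 7.73 to 11.6. Neither overlapped between groups and neither passed, with log2 fold changes of 0.44 ± 0.16 and 0.40 ± 0.16 and adjusted p of 0.143 and 0.183 with the block. Ephb2, the EphB receptor with the highest mean level, was at 9.89, 10.9 and 7.27 in the positive and 9.96, 10.7 and 9.32 in the negative libraries, with log2 ratios of 0.01, -0.02 and 0.36. Ephb1 had at most 23 counts in a library.

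Among the ephrins, Efnb2 fell and no other passed. Efnb2 (gene 13642, chromosome 8, 8617235 to 8661242), the transmembrane ligand of Ephb4 and other EphB receptors and of Epha4, was at 8.21, 11.7 and 15.4 CPM per kilobase in the positive and 5.83, 5.33 and 3.51 in the negative libraries. The groups did not overlap, and tumor 3 held both the highest positive and the lowest negative value. Efnb2 was 2.39-fold lower in CD34 negative CAFs, with a log2 fold change of -1.26 ± 0.26 (adjusted p 0.019 under the blocked limma-voom fit, 0.107 without). It kept its direction without each tumor in the blocked fits, at -0.89 to -1.54, and passed in all 3. Efnb1 was at 7.12, 11.1 and 8.26 in the positive and 9.66, 10.9 and 4.77 in the negative libraries, with an estimate of -0.09 ± 0.22, so that Efnb1 made up 34.9% to 48.4% of the summed B-class level in the positive and 57.6% to 66.7% in the negative libraries.

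A-class ephrins differed in sign among themselves. Efna5 was at 1.71, 3.13 and 5.89 CPM per kilobase in the positive and 2.44, 1.30 and 2.10 in the negative libraries, lower in tumors 2 and 3 and higher in tumor 1, as for Epha1. Its log2 fold change of -0.96 ± 0.34 had an adjusted p of 0.125 under the blocked limma-voom fit, and it passed there without tumor 1, at -1.39. Efna1, Efna2, Efna3 and Efna4 had positive estimates between 0.59 and 0.95 and adjusted p between 0.202 and 0.69 with the block. Among them, Efna1 and Efna2 did not overlap between groups, with Efna2 at 1.57, 1.47 and 1.65 in the positive and 2.81, 2.23 and 4.04 in the negative libraries. Efna4 and Efna3 share 10.5% and 14.1% of their exon bases with antisense transcripts.

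Summed by group, 8 of the 9 groups, ligands and receptors alike, were higher in the negative library of every tumor, and the B-class ephrins were not. Slits summed to 111, 223 and 146 CPM per kilobase in the positive and 177, 271 and 242 in the negative libraries, netrins to 43.0, 28.1 and 38.9 against 43.4, 52.7 and 64.2, and A-class ephrins to 6.45, 7.92 and 12.7 against 10.0, 8.72 and 14.2. EphA receptors summed to 18.6, 18.9 and 19.9 CPM per kilobase in the positive and 25.4, 28.9 and 49.3 in the negative libraries, and EphB receptors to 26.7, 25.2 and 22.6 against 37.8, 31 and 28.5. Robo receptors summed to 10.6, 7.04 and 5.45 against 16.8, 11.8 and 11.3. B-class ephrins had sums of 15.7, 22.9 and 23.6 in the positive and 15.9, 16.3 and 8.28 in the negative libraries, lower in tumors 2 and 3. Sums are given as a description, without a test.

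**Figure D4:**
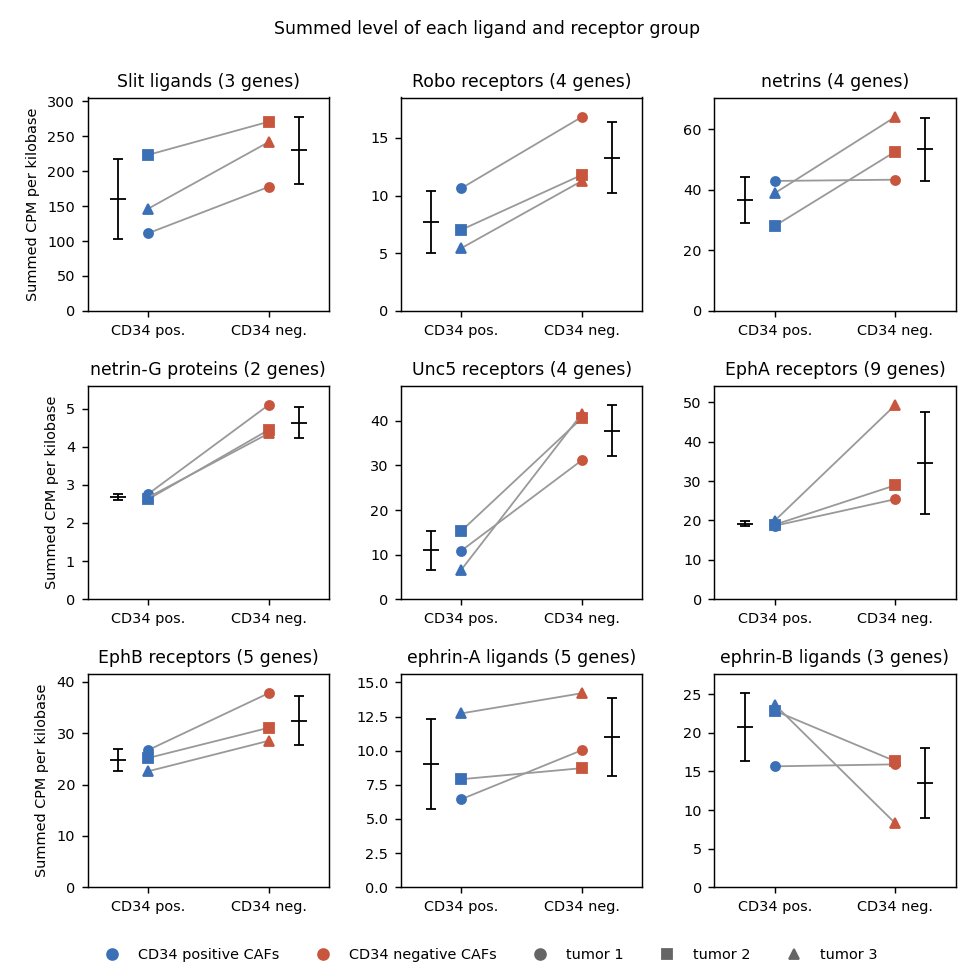
Summed level (CPM per kilobase) of the genes of each ligand and receptor group in the CD34 positive (blue) and CD34 negative (red) library of each tumor, joined by lines, with black bars for mean ± SD (n = 3). The Unc5 sum goes from 10.9 ± 4.36 to 37.8 ± 5.76, and that of the B-class ephrins from 20.7 ± 4.40 to 13.5 ± 4.53.

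Partners and effectors of these systems were examined in 3 lists of 47 genes, of which 41 were tested. With the tumor as a block, 3 rose and 5 fell, beside 4.32% and 4.25% of all genes tested, and the median log2 fold change of the 41 was 0.00; without it, limma-voom called 0, and 9 had an unadjusted p under 0.05 (14.3% of all genes). Dcc, the attractive netrin receptor, had no count in any library, whereas Neo1 (neogenin) was at 20.1 to 29.7 CPM per kilobase in the positive and 15.7 to 28.5 in the negative libraries, with an estimate of -0.18 ± 0.13 with the block. Of the Robo effectors, Srgap1, a GTPase-activating protein, fell by 1.44 ± 0.19 on the log2 scale (adjusted p 0.00281 under the blocked limma-voom fit) and Enah, an actin regulator, by 1.43 ± 0.19 (0.0029). Srgap1 was at 4.72, 3.53 and 7.19 in the positive and 2.10, 1.09 and 2.61 in the negative libraries, without overlap, and thus went against its receptors. Gpc1, a heparan sulfate proteoglycan that binds Slit, rose by 1.19 ± 0.18 (0.0054).

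Of the other listed genes, Flrt2, a membrane ligand of Unc5 receptors, fell by 1.00 ± 0.16 (0.0071), from 18.5, 22.1 and 35.5 to 13.0, 9.23 and 15.5 CPM per kilobase. Fyn, a kinase downstream of Eph receptors, fell by 0.94 ± 0.14 (0.00507), from 41.9, 32.6 and 49.6 to 21.9, 20.4 and 21.4. Kalrn, a guanine nucleotide exchange factor, rose by 1.22 ± 0.22 (0.0114). The remaining called genes, named after their values were seen, were the exchange factors Vav2, at 0.68 ± 0.17 (0.0416), and Vav3, at -1.29 ± 0.30 (0.0308).

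Pericyte markers differed between the fractions, and not all in the same direction. Of the 5, Mcam, Cspg4 and Notch3 rose by 2.15, 1.81 and 1.55 on the log2 scale (adjusted p 0.00251, 0.00309 and 0.00601 under the blocked limma-voom fit), Kcnj8 fell by 2.31 (0.0161) and Rgs5 had an adjusted p of 0.0803. The list summed to 183.7 to 228.0 CPM in the negative and 46.4 to 100.4 CPM in the positive libraries, and none of the 5 was at 0. Of the 5 fibroblast markers, Dcn and Lum fell, and Pdgfra, the gene of the reporter, did not pass. The part of pericyte-marker expression in the guidance gene differences was not tested. Endothelial markers, whose cells express Unc5b, Efnb2 and Ephb4, were called in 0 of 4 genes with the block, and of these Cdh5 was at 0 in the positive library of tumor 3. Their directions differed. Vwf and Cdh5 were higher in the negative library of all 3 tumors, with blocked log2 fold changes of 1.38 ± 0.72 and 1.45 ± 0.81. Kdr was lower in all 3, at -1.01 ± 0.40, and Pecam1 was higher in 1. Their part in the guidance gene differences was not tested. Of the 5 epithelial markers, Epcam, Krt8 and Krt18 were higher in the negative library of all 3 tumors, and Itga6 and Krt14 in 2. With the block, 0 of the 5 were called, with the smallest adjusted p at 0.0907 for Krt8 in limma-voom. The part of epithelial transcripts in the guidance gene differences was not tested. Schwann cell markers summed to 15.8 to 22.0 CPM in the negative and 8.43 to 14.3 CPM in the positive libraries, and macrophage markers to 12.9 to 16.5 and 9.03 to 15.8 CPM, with 0 called in either list. Of the keratinocyte markers (1.04 to 3.84 and 7.10 to 10.8 CPM) Krtdap fell, and of the muscle markers (2.97 to 13.3 and 1.52 to 1.86 CPM) Des rose, whereas Myf5 was at 0 in every library.

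How firmly a gene was called depended on the model. Without the tumor, edgeR called 0 guidance genes higher (0% of all genes) and 0 lower (0.0606%), while 11 higher and 2 lower had unadjusted p under 0.05 (6.61% and 5.88% of all genes), and DESeq2 called Unc5b and Unc5c higher (2.44%) and Efnb2 lower (3.01%). With the block, edgeR called Unc5b, Unc5c and Robo2 higher (1.76%) and 0 lower (2.11%), with 16 higher and 2 lower at an unadjusted p under 0.05 (10.0% and 9.55% of all genes), and DESeq2 called 12 higher (6.12%) and 1 lower (6.52%). The shares for DESeq2 are of the 12809 and 13703 genes to which it gave an adjusted p. Over the 13 fits to all libraries, Unc5b was called in 6, with adjusted p from 3.25e-08 to 0.104. Unc5c and Efnb2 were called in 4, with adjusted p from 1.13e-05 to 0.326 and from 0.00148 to 0.138. Slit2 (0.000302 to 0.326) and Robo2 (0.000303 to 0.598) were called in 3. Epha3 (0.00692 to 0.641), Epha4 (0.00222 to 0.458), Ephb6 (0.0108 to 0.436), Ntn4 (0.0348 to 0.393) and Robo1 (0.0294 to 0.31) were called in 2. Most of the 13 fits have no tumor term, and several of those are limma-voom with another filter, scaling or set of rows. Such fits are not independent of each other. Unc5b was called in every fit with a tumor term, and Slit2 in all of them but edgeR.

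With the block, Unc5b, Slit2, Epha3, Epha4 and Efnb2 passed without each of the 3 tumors in turn. Unc5c, Ntn4, Robo2, Ephb6 and Robo1 did not pass without tumor 2, Ephb6 also not without tumor 1, and Robo1 also not without tumor 3. Ntn4 had a log2 fold change of 0.46 without tumor 2.

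**Figure D5:**
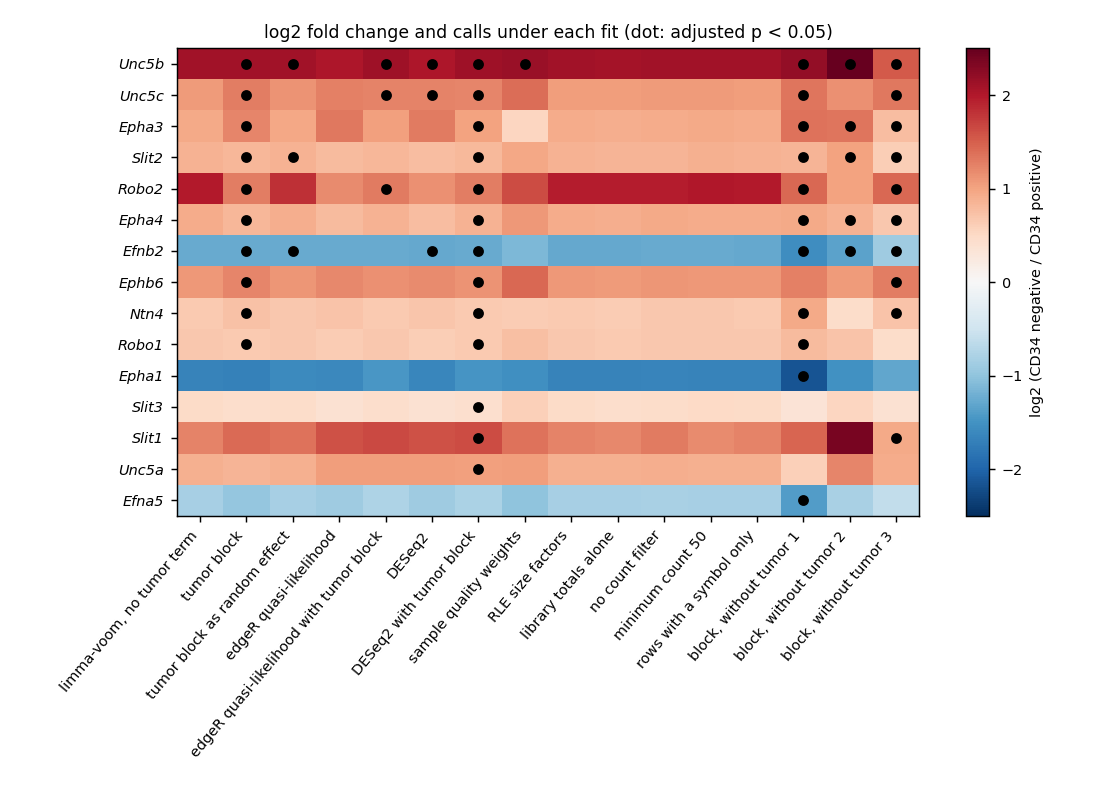
log2 fold change (color) of the 15 guidance genes called in at least 1 of the fits shown, with a dot where the adjusted p was under 0.05, for the 13 fits to all libraries and the 3 blocked fits without 1 tumor. Unc5b is called in 6 of the 13 fits to all libraries and in all 3 of the others, and the colors keep 1 direction in every row.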

How the data were processed

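RNA of GFP+ CD34 negative and CD34 positive CAFs was made into TruSeq RNA v2 libraries and sequenced on an Illumina NextSeq. The authors aligned reads to GRCm38/mm10 and deposited raw counts per NCBI gene, made with featureCounts in Rsubread. Strand setting and treatment of reads with several matches were not given in the sources used here. The kit does not mark strand, so reads in exon bases shared by genes on opposite strands cannot be assigned by strand.

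Groups and tumor numbers came from sample titles. The study's methods name filterByExpr, TMM, voom and linear modeling, and state neither the model's terms nor a minimum count. Here genes were filtered with filterByExpr (minimum count 10, its default), scaled by TMM and compared by limma-voom without a tumor term, with Benjamini-Hochberg adjustment over the 14855 genes tested and a threshold of 0.05, two-sided (software: R 4.3.3, limma 3.58.1, edgeR 4.0.16, DESeq2 1.42.0). Both fractions of a number came from 1 tumor, and deviations from group means correlated across genes at 0.373, 0.350 and 0.219 within tumors 1, 2 and 3, so a blocked fit, with the tumor as a term, stands beside it. Ratios within a tumor are differences of voom log2 CPM. P-values measure the spread between these libraries only. Levels used the deposited gene lengths and library totals. Counting error alone limits a gene at 0: 3 counts equal 0.0351 to 0.186 CPM, depending on the library.

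Members, lists and tests were chosen with earlier results of these data known. Members printed with every library were those called in either limma-voom fit, the 8 with the highest mean level, and those with the smallest p with the block, up to 20 in all; some others were added after their values were seen. At most 6 partner genes were to be named. Positions are those of RefSeq for GRCm38.p6, joined on gene ID, and shared exons those of GENCODE M21. The GENCODE exons can differ from the gene models that were counted. Ntng2, for example, has 3990 exon bases in GENCODE and a deposited length of 1770. Whether the shared bases lie in counted exons was not tested. The code of the fits was run on simulated counts, in which the changes were larger than those of all called guidance genes but Unc5b. The outcome is not given here, and the simulation did not cover smaller changes. Alternatives covered block, tool, weights, normalization, filter, annotation and libraries.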

Additional observations from a re-analysis of the deposited data

How the results depend on the processing

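In the main limma-voom fit, which has no tumor term, 0 guidance genes and 0 of the partner and effector genes were called. The DESeq2 counts given without the block, and those with sample quality weights, are also from fits without a tumor term. The count of guidance genes called higher was 9 with the replicate block (the tumor), 2 with it as a random effect, 3 in edgeR with the block, 2 in DESeq2, 12 in DESeq2 with the block and 1 with sample quality weights. Leaving out a library or tumor gave 0 to 1 without the block and 4 to 9 with it. The count called lower was 1 with the block, as a random effect, in DESeq2 and in DESeq2 with the block, and 0 without and 1 to 3 with the block when libraries or tumors were left out. Partner and effector calls were 8 with the block, 5 as a random effect, 5 in edgeR with the block, 5 in DESeq2, 8 in DESeq2 with the block and 1 with weights, and 0 without and 6, 7 and 9 with the block when libraries or tumors were left out. Over all genes tested, in either direction, 703 of 14855 were called with the random effect and 161 with sample quality weights. The blocked fit called 1134 of 14893, 851 of 14634 and 2019 of 15514 genes without tumors 1, 2 and 3. Without the block, 0 to 86 genes were called when a library or tumor was left out. Shares for the block and for each tool are given above. In limma-voom, the block changed calls for the 10 guidance and 8 partner genes named and for no other guidance or partner gene. In DESeq2, the guidance genes called only with the block included Slit1, Slit3 and Unc5a. Unc5b, Unc5c and Efnb2 were called there without it too. RLE factors, library totals alone, both filters and rows with a symbol only left the counts of guidance and partner calls at 0 in limma-voom without the block. The median log2 fold change was 0.66 to 0.73 with 1 library left out, 0.65 to 0.78 with 1 tumor left out and 0.64 to 0.76 with 1 tumor left out of the blocked fit.

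Of 480 values of the 20 named genes under 24 alternatives, 411 kept direction and side of the threshold, 60 passed where the value without the tumor did not, and 9 changed sign. The sign changed for Ntn1 with sample quality weights (-0.30) and with libraries or tumors left out (-0.25 to 0.72, and -0.17 to 0.36 under the block), and for Ephb2 there (-0.072 to 0.26, and -0.020 to 0.18 under the block); the cause was not tested. With 3 libraries per group and 16238059 counts in the smallest library, differences in genes under the filter were not detectable.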
